A study of Homo sapiens with 24 samples.

Results

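The 2 BRAT1 knockout (KO) lines of the human embryonic stem cell line H7 were compared with each other at day 14 of ventral neural differentiation. The 6 libraries compared, 3 of BRAT1 KO 1 (KO line 1) and 3 of BRAT1 KO 2 (KO line 2), were chosen by their labels and make up 6 of the 24 libraries of the series. The other libraries are 3 of each of 2 control lines at day 14, shown here beside the KO lines, and 3 of each of the 4 lines at day 0, when the cells were undifferentiated. All lines come from H7, the day 14 cells are described as neural progenitors that had been differentiated, and poly(A) RNA was sequenced after Click-Seq, which attaches the sequencing adapter by click chemistry. The edited alleles, and whether a line is 1 clone, are not given in the labels, so a difference between the KO lines cannot be told apart from a difference between any pair of lines. The replicates are described as biological replicates of 1 line, and n is 3 libraries for each line in everything that follows.

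BRAT1 binds INTS11, the endonuclease of Integrator, a complex that cuts nascent RNA at snRNA genes and at many protein-coding genes. Early neural progenitors take a position along the head-to-tail axis and along the dorsal-ventral axis. HOX genes mark the hindbrain and spinal cord, EN2 and PAX8 mark the midbrain-hindbrain region, SIX3 and FEZF1 mark the anterior forebrain, and NKX2-1 and the DLX genes mark the ventral forebrain. Hedgehog signalling specifies ventral fates: the ligand SHH binds the receptor PTCH1, which frees GLI factors to switch on targets that include GLI1, PTCH1 and HHIP.

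Day 14 libraries held 2228736 to 3726227 counts. Counts often lie under the name of the gene on the opposite strand: among 1763 coding genes paired with an antisense gene, 1164 had more counts under the antisense name. A feature is therefore called opposite a gene when its exons overlap that gene on the other strand in the GENCODE 29 annotation, and for a coding gene with nothing opposite the strand of its counts was not settled. The wrong-strand percent, which is the counts under a coding gene as a percent of those under its opposite feature over 432 pairs, was 1.84 to 2.71 in controls, 2.50, 2.50 and 4.31 in KO line 1, and 3.41, 3.08 and 4.25 in KO line 2. The KO lines overlapped in it. Its pairs were kept only where, over day 14, the opposite feature had at least 2000 counts. The coding gene also had at most 10% of those counts. This choice keeps the percent low at day 14, so it is not a general rate of wrong-strand counts. Markers were read to describe the day 14 cells. Features opposite neural progenitor genes summed to 11990 to 14510 CPM (counts scaled to library size) in KO line 1. The sum was 10930 to 11010 CPM in KO line 2 and 12400 to 15550 CPM in controls. In controls most of it lay in ENSG00000234961 and VIM-AS1, both opposite the filament gene VIM (medians 6906 and 5843 CPM). The sum thus mainly reads 1 gene. Under their own names the progenitor genes summed to 693 to 1142 CPM in KO line 1 and 779 to 997 CPM in KO line 2. Controls had 359 to 604 CPM. NANOG, a pluripotency factor, had a mean of 2.2 CPM in KO line 1 and 1.11 CPM in KO line 2, and UTF1 and FGF4 were at 0 in every day 14 library. Other members of the list of 18 pluripotency genes kept counts, and LIN28A had 42.7 to 79.6 CPM in controls. The list summed to 98.4 to 154.5 CPM in KO line 1, 101 to 135 CPM in KO line 2 and 80.5 to 154 CPM in controls.

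BRAT1, the targeted gene, differed between the KO lines. Control libraries had 201 to 312 CPM under BRAT1 (median 270). KO line 1 had 12.2, 7.83 and 15.1 CPM in replicates A, B and C, and KO line 2 had 80.5, 76.0 and 76.7 CPM. Every KO line 2 library lay above every KO line 1 library and below every control library. The means were 4.48% of the control mean in KO line 1 and 29.8% in KO line 2, a log2 fold change of 2.7 between them (SE 0.23, edgeR adjusted p = 1.09e-09). No gene lies opposite BRAT1 (ENSG00000106009, GRCh38 chromosome 7, 2537877 to 2555727, minus strand), so the strand that these counts come from was not settled, and they do not measure protein. At day 0 the counts were 0, 0 and 0 in KO line 1 and 8, 0 and 10 in KO line 2, beside 0 to 6 in the control libraries, so the lines could not be compared there. A count of 0 in KO line 1 at day 0 allows up to 1.40 to 2.11 CPM, a limit that covers counting error only.

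Over 15000 features tested, 184 (1.23%) differed between the KO lines at an adjusted p under 0.05 with edgeR, 124 higher in KO line 2 (0.827%) and 60 lower (0.4%). At an unadjusted p under 0.05 there were 1668 (11.1%). The control lines differed from each other in 16 features (0.107%), 14 higher in control line 2 (0.0933%) and 2 lower (0.0133%), with 4.29% at an unadjusted p under 0.05, and the root mean square log2 difference between line means was 0.740 for the KO lines and 0.606 for the control lines. Against the 6 control libraries KO line 1 differed in 2556 features (17%), 8.05% higher and 8.99% lower, with 29.3% at an unadjusted p under 0.05. KO line 2 differed in 2120 (14.1%), 6.5% higher and 7.63% lower, with 27.2% at an unadjusted p under 0.05, and both counts use the same controls. The 3 and 3 libraries did not overlap for 181 of the 184 features, where 14.6% of all features tested have no overlap. The features higher in KO line 2 were the larger differences, with a median absolute log2 fold change of 1.73, and 101 of the 124 were at least 2-fold. Those lower had a median of 0.78, and 16 of the 60 were at least 2-fold. The count of 60 was 17 without KO line 1 replicate A, 16 without KO line 1 replicate B or KO line 2 replicate C, 22 without KO line 2 replicate A, 35 without control line 2 replicate A and 135 without KO line 1 replicate C. Leaving out 1 library moved the count of 184 to 116 without KO line 1 replicate B, 289 without KO line 1 replicate C, 109 without KO line 2 replicate A and 117 without KO line 2 replicate C. Without KO line 1 replicate C and KO line 2 replicate C together, which have the highest wrong-strand percents, 175 features differed, and 119 of these were among the 184. The count of 16 was 10 without control line 1 replicate A and 25 without KO line 1 replicate C, and the count of 2120 was 1214 without KO line 2 replicate C.

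**Figure D1:**
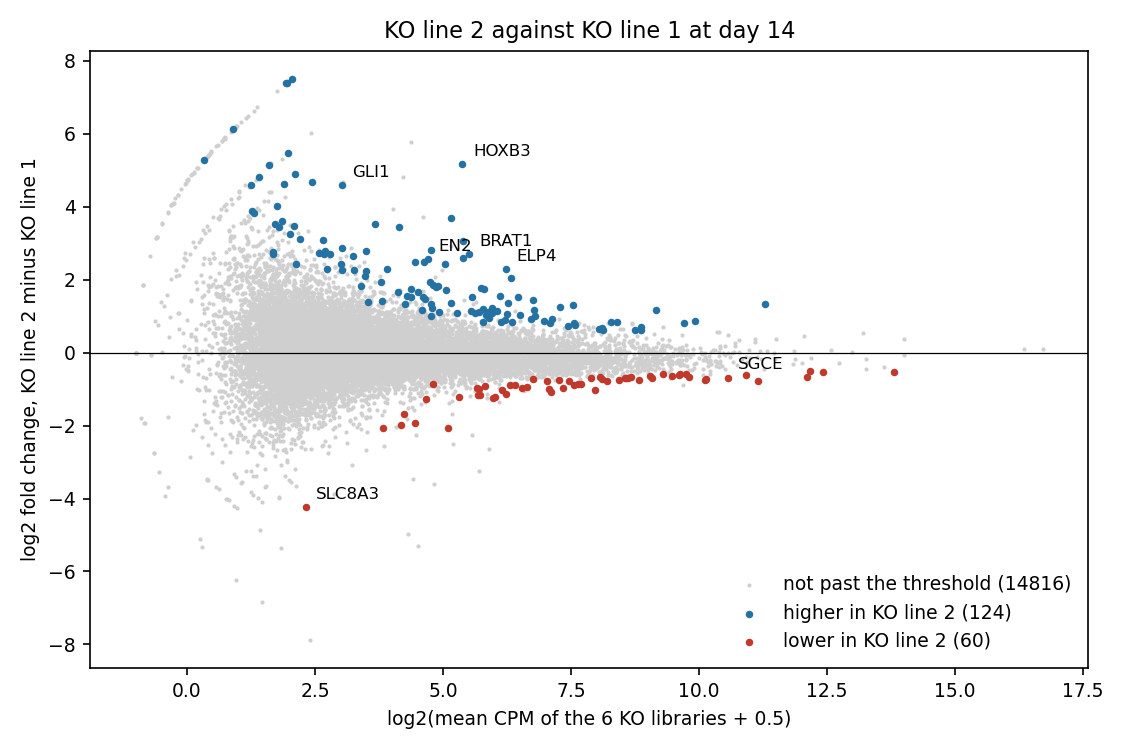
Log2 fold change of KO line 2 against KO line 1 at day 14 (y axis) against the log2 mean CPM of the 6 KO libraries (x axis), 1 point per feature tested. Blue points are the 124 features higher in KO line 2 and red points the 60 lower at an edgeR adjusted p under 0.05; the larger differences are among the blue points.

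Features higher in KO line 2 were mostly ones below control in KO line 1. Of the 124, 112 were below control in KO line 1 by the same test, and over these 112 the median level was 16.7% of control in KO line 1 and 66.8% in KO line 2. KO line 2 lay nearer the control mean in 111 of the 124 (89.5%), where 52.5% of all 15000 features lay nearer control in KO line 2. Of the 124, 63 differed from control in KO line 1 only, 49 in both KO lines, 9 in KO line 2 only and 3 in neither. Over all 15000 features these counts were 1251, 1305, 815 and 11629. The mean of KO line 2 lay within the range of the control libraries for 39 of the 124, and that of KO line 1 for 10. Among all 15000 features it did so for 8723 in KO line 2 and 8497 in KO line 1, a larger share. The 60 lower features had no such lean: KO line 2 was nearer control in 29 and KO line 1 in 31. Of these 60, 25 differed from control in KO line 1 only, 23 in KO line 2 only, 7 in both and 5 in neither. These counts describe features selected by the difference between the KO lines, and the KO lines share their controls, so no test was made on them.

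**Figure D2:**
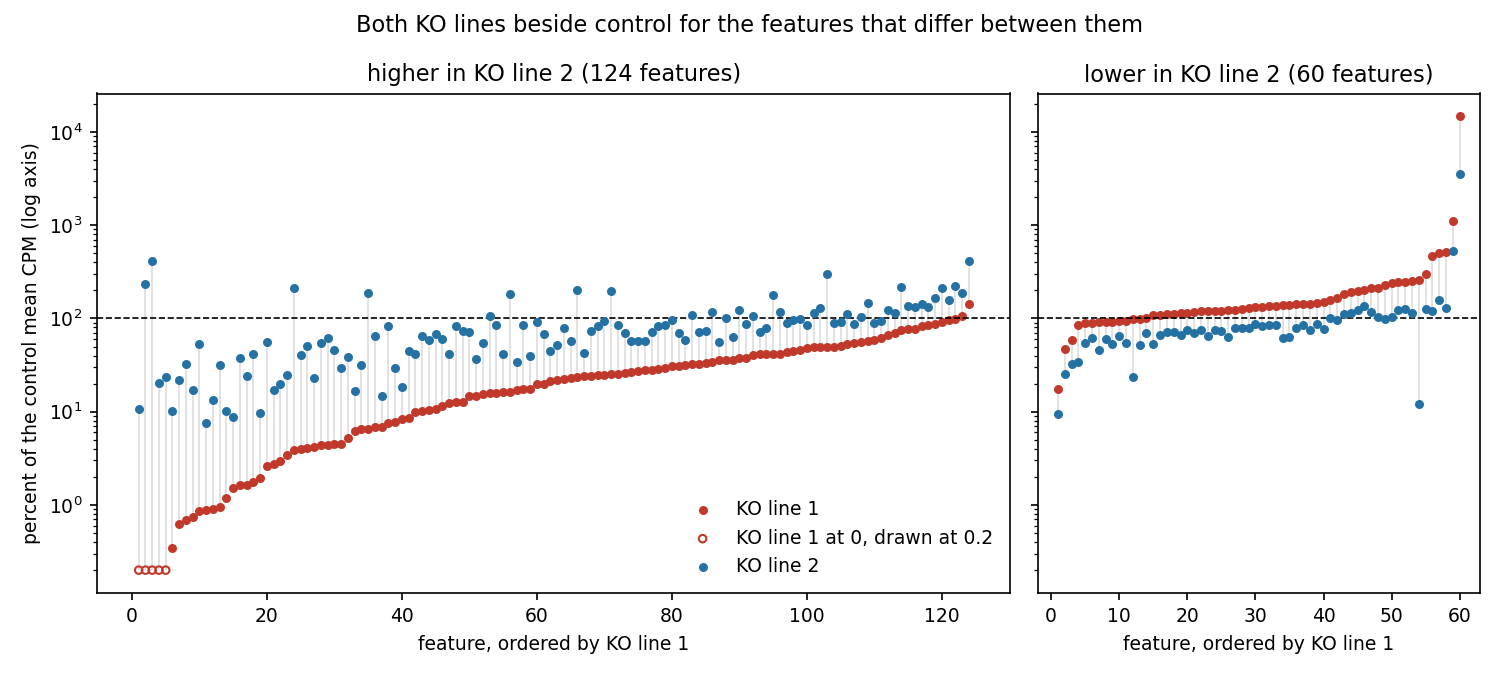
Mean CPM of KO line 1 (red) and KO line 2 (blue) as a percent of the control mean (log axis), for the 124 features higher and the 60 features lower in KO line 2, ordered by the KO line 1 value. The dashed line is the control mean, and open symbols mark 5 features with no count in KO line 1, drawn at 0.2. In the left panel most red points lie below the line, and KO line 2 is nearer control for 111 of 124 features.

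HOXB3, a hindbrain position gene (ENSG00000120093, chromosome 17, 48548870 to 48604912, minus strand), had the largest rise among features with a symbol, at least 10 CPM in the higher line and no overlap. HOXB-AS1 overlaps its exons on the other strand, and whether the counts under HOXB3 come from HOXB3 or HOXB-AS1 RNA was not tested. HOXB-AS1 under its own name had means of 30.8 CPM in controls, 0.497 CPM in KO line 1 and 3.03 CPM in KO line 2, and did not pass between the KO lines (log2 fold change 2.67, SE 0.75, edgeR adjusted p = 0.0758). Control libraries had 226 to 508 CPM (median 374), KO line 1 had 0.407, 5.59 and 0.958 CPM, and KO line 2 had 74.0, 67.3 and 98.6 CPM. KO line 2 stood apart from KO line 1 in every library and stayed below every control library, at 21.7% of the control mean beside 0.628% in KO line 1. The log2 fold change between the KO lines was 5.16 (SE 0.50, edgeR adjusted p = 2.37e-04). Of 39 HOX genes 5 passed the filter on low counts, and HOXB3 was the 1 that differed, where 1.23% of all features tested did. HOXA3, HOXB1 and HOXB2 had no count in KO line 1 and means of 2.33, 1.67 and 1.30 CPM in KO line 2, with edgeR adjusted p-values of 0.114, 0.243 and 0.143, and HOXA3 passed without KO line 2 replicate B. Against control, 4 of the 5 HOX genes were lower in KO line 1 and 1 was lower in KO line 2. HOXA3, HOXB1 and HOXB2 passed the filter on low counts through the controls (means of 4.54, 3.95 and 5.45 CPM). For them a level below control was favoured by the filter.

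Among midbrain-hindbrain genes EN2 and PAX8-AS1 were higher in KO line 2, and the other 7 tested did not pass between the KO lines. EN2, a homeobox factor of that region (chromosome 7, 155458129 to 155464831), had 34.2 to 75.8 CPM in controls (median 61.4), 5.69, 13.4 and 3.59 CPM in KO line 1, and 53.9, 37.5 and 39.5 CPM in KO line 2. All KO line 2 libraries lay within the control range and above KO line 1 (log2 fold change 2.56, SE 0.35, edgeR adjusted p = 2.67e-05). PAX8-AS1, opposite the paired-box factor PAX8 (chromosome 2, 113211522 to 113276581), had 377 to 549 CPM in controls (median 476), 8.54, 1.86 and 11 CPM in KO line 1, and 43.5, 46.5 and 34.8 CPM in KO line 2. It was far below control in both KO lines and higher in KO line 2 (log2 fold change 2.48, SE 0.33, edgeR adjusted p = 6.14e-04). Of 13 members of the midbrain-hindbrain list, which holds PAX8 and PAX8-AS1 separately, 9 were tested. Of these 2 were higher in KO line 2 and none was lower, where 0.827% of all features tested were higher. The median log2 fold change of the 9 was 2.10 beside 0.01 over all features. That median is the value of PAX8, with means of 0.124 CPM in KO line 1 and 0.596 CPM in KO line 2 (SE 1.69, edgeR adjusted p = 0.733). All 9 were below control in KO line 1 and 5 were in KO line 2. EN1, PAX5, PAX8, GBX2 and SP5 passed the filter on low counts through the controls. Their means were 3.79 to 7.45 CPM in controls and 0 to 0.559 CPM in KO line 1. For these genes a level below control was favoured by the filter. WNT1, the secreted signal of the boundary, had 1.73 CPM in KO line 1, 1.75 CPM in KO line 2 and 8.72 CPM in controls (means), with a log2 fold change of -0.02 (SE 0.79, edgeR adjusted p = 0.998). PAX2, a paired-box factor, had means of 1.14 CPM in KO line 1 and 0.851 CPM in KO line 2 (log2 fold change -0.33, SE 1.1, edgeR adjusted p = 0.964).

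ENSG00000271776, opposite the sensory neuron factor POU4F1, had 407 to 531 CPM in controls (median 454), 31.7, 28.0 and 34.0 CPM in KO line 1, and 74.9, 89.4 and 36.3 CPM in KO line 2. Its KO line 2 replicate C lay just above KO line 1 and its other libraries well above (log2 fold change 1.09, SE 0.22, edgeR adjusted p = 0.00801), and the call was lost without KO line 1 replicate B, KO line 2 replicate A or KO line 2 replicate B. Of 19 neuron genes tested under their own name none differed between the KO lines, where 1.23% of all features tested did. In bulk RNA, fewer cells of a type and less RNA per cell cannot be told apart.

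GLI1 and features opposite 2 other Hedgehog targets, HHIP and PTCH1, were higher in KO line 2. Whether the counts under GLI1 come from GLI1 or from the other strand was not tested. GLI1, the transcription factor that the pathway induces (chromosome 12, 57460135 to 57472262, plus strand), had 10.7 to 46.6 CPM in controls (median 21.9), 2.03, 0 and 0 CPM in KO line 1, and 12.7, 12.7 and 18.4 CPM in KO line 2. KO line 2 lay within the control range and KO line 1 below it. The 5 counts in KO line 1 and 140 in KO line 2 give a ratio of 27.5 (95% counting interval 11.5 to 86.0), with a fitted log2 fold change of 4.6 (SE 0.78, edgeR adjusted p = 0.00173). HHIP-AS1, opposite HHIP, which encodes a decoy receptor for Hedgehog ligands, had 288 to 360 CPM in controls (median 304), 17.5, 48.5 and 26.6 CPM in KO line 1, and 136, 157 and 92.2 CPM in KO line 2. Each KO line 2 library lay between KO line 1 and control (log2 fold change 2.06, SE 0.26, edgeR adjusted p = 8.27e-05). ENSG00000273621, also opposite HHIP, did not pass between the KO lines (log2 fold change 1.56, SE 0.46, edgeR adjusted p = 0.0972). ENSG00000271155, opposite the receptor gene PTCH1, had 1256 to 1582 CPM in controls (median 1514), 710, 601 and 519 CPM in KO line 1, and 1056, 1235 and 892 CPM in KO line 2. Controls and both KO lines were again separate, by a smaller step (log2 fold change 0.80, SE 0.15, edgeR adjusted p = 0.00248).

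The ligand gene SHH did not pass between the KO lines. It had a mean of 0.560 CPM in controls, 18.4 CPM in KO line 1 and 8.34 CPM in KO line 2. The KO lines differed by -1.15 on the log2 scale (SE 0.64, edgeR adjusted p = 0.527). SHH was above control in both KO lines. It passed the filter on low counts through the KO lines, so a level above control was favoured by the filter. PTCH1 and HHIP under their own names had log2 fold changes of 0.61 (edgeR adjusted p = 0.297) and 0.67 (0.512) between the KO lines. Of 16 members of the Hedgehog list, 12 were tested under their own name, with a median log2 fold change of 0.52. Of these 2 were higher in KO line 2 and none lower: GLI1 and HHIP-AS1, which is itself a list member. Among all features tested 0.827% were higher. Of 6 features opposite a member, 1 was higher and none lower.

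**Figure D3:**
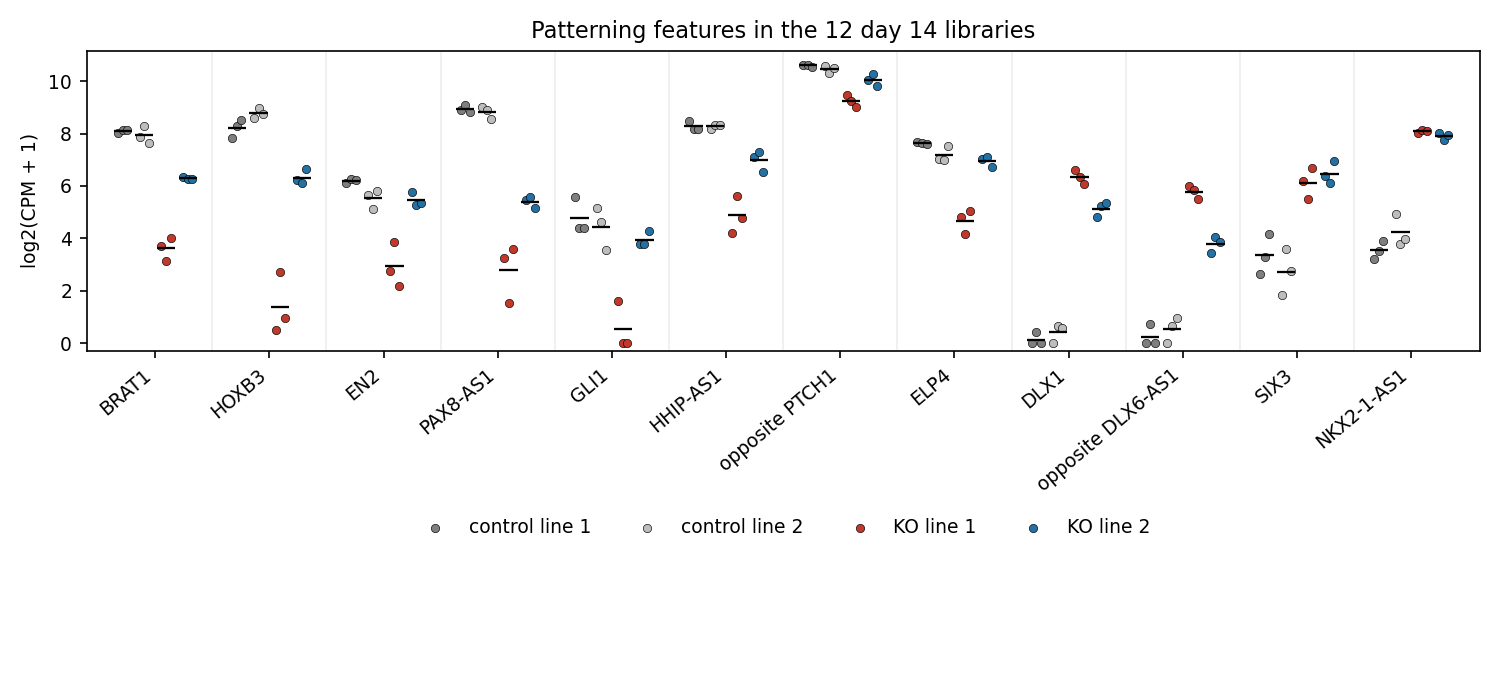
Level of 12 patterning features in each day 14 library, as log2(CPM + 1), with 1 point per library and a black line at the mean of each line. BRAT1, HOXB3, EN2, PAX8-AS1, GLI1, HHIP-AS1, the feature opposite PTCH1 and ELP4 have KO line 2 between KO line 1 and control or within the control range; DLX1, the feature opposite DLX6-AS1, SIX3 and NKX2-1-AS1 are far above control in both KO lines, and of these only the one opposite DLX6-AS1 passes between them.

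Forebrain genes were mostly raised in both KO lines, and few differed between them, where 1.23% of all features tested did. A share that low allows no call in sets of this size. SIX3 had 2.59 to 17.1 CPM in controls (median 7.32), 72.4, 44.4 and 101 CPM in KO line 1, and 82.4, 67.3 and 122 CPM in KO line 2, so the KO lines overlapped (log2 fold change 0.31, SE 0.43, edgeR adjusted p = 0.884). NKX2-1-AS1, an antisense RNA at the locus of the ventral forebrain factor NKX2-1, had 8.34 to 29.6 CPM in controls (median 13.4), 256, 279 and 274 CPM in KO line 1, and 260, 216 and 246 CPM in KO line 2 (log2 fold change -0.17, SE 0.22, edgeR adjusted p = 0.877). FEZF1-AS1, opposite FEZF1, had 460, 474 and 428 CPM in KO line 1 and 321, 313 and 317 CPM in KO line 2, against 12.8 to 21.2 CPM in controls. Its KO lines did not overlap, and the difference did not pass (log2 fold change -0.52, SE 0.17, edgeR adjusted p = 0.156), although DESeq2 called it (adjusted p = 0.0301). Of 14 anterior forebrain genes tested none differed between the KO lines, and 9 were above control in KO line 1 and 11 in KO line 2. Of 11 ventral forebrain genes tested none differed, and 10 were above control in KO line 1 and 9 in KO line 2. Of these 11 genes, 2 had a positive log2 fold change between the KO lines, and the median was -0.41. Several of the 11, among them NKX2-1, LHX6, DLX1, DLX2, DLX5 and DLX6, passed the filter on low counts through the KO lines. Means of the named genes were 0 to 0.713 CPM in controls and 5.29 to 81.0 CPM in KO line 1. FEZF2, an anterior forebrain gene, did so too (means of 0.571 CPM in controls and 25.2 CPM in KO line 1). For such genes a level above control was favoured by the filter.

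DLX genes encode homeobox factors of ventral forebrain neurons. None passed between the KO lines under its own name, and 1 feature opposite DLX6-AS1 did. DLX1 had 0 to 0.580 CPM in controls, 96.4, 79.4 and 67.1 CPM in KO line 1, and 26.9, 36.1 and 39.5 CPM in KO line 2, with no overlap of the KO lines and an edgeR adjusted p of 0.0573 (log2 fold change -1.24, SE 0.34). The difference in DLX1 passed in 7 of 21 alternatives, among them DESeq2 and the fits without KO line 1 replicate C, control line 2 replicate B or control line 2 replicate C. ENSG00000277124, opposite the antisense RNA DLX6-AS1 and so on the strand of DLX6 (chromosome 7, 96965489 to 96965695), had 0 to 0.970 CPM in controls, 62.2, 56.3 and 44.1 CPM in KO line 1, and 9.73, 15.4 and 13.5 CPM in KO line 2. It was lower in KO line 2 (log2 fold change -2.07, SE 0.45, edgeR adjusted p = 0.0100), and the call was lost without KO line 1 replicate A or without KO line 2 replicate A. DLX2, DLX5 and DLX6 had log2 fold changes of -0.85, -1.41 and -0.41, with edgeR adjusted p-values of 0.728, 0.175 and 0.948. DLX6-AS1 itself had means of 71.7 CPM in KO line 1 and 32.8 CPM in KO line 2 (log2 fold change -1.13, SE 0.36, edgeR adjusted p = 0.131).

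ELP4, whose exons lie opposite the eye and forebrain factor PAX6 (chromosome 11, 31509700 to 31790328, plus strand), was another feature below control in KO line 1. It had 126 to 203 CPM in controls (median 188), 26.8, 16.8 and 31.9 CPM in KO line 1, and 131, 135 and 105 CPM in KO line 2. KO line 1 lay below every other library (log2 fold change 2.28, SE 0.22, edgeR adjusted p = 4.55e-08). PAX6 under its own name had means of 88.1 CPM in controls, 107 CPM in KO line 1 and 105 CPM in KO line 2, with a log2 fold change of -0.03 between the KO lines (SE 0.21, edgeR adjusted p = 0.985). ENSG00000279437, opposite the neural factor POU3F4, had 1315, 1355 and 1082 CPM in KO line 1 and 1282, 1310 and 1319 CPM in KO line 2 beside 267 to 328 CPM in controls, and the KO lines overlapped.

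The named rises outside patterning were single features of varied function, read under their own names. Whether their counts come from that gene or from the other strand was not tested. BST2, the antiviral membrane protein tetherin, had 23.8 to 58.1 CPM in controls (median 35.8), 0.407, 5.22 and 2.88 CPM in KO line 1, and 37.3, 29.8 and 27.8 CPM in KO line 2 (log2 fold change 3.44, SE 0.45, edgeR adjusted p = 1.10e-05). KO line 2 lay within the control range and KO line 1 below it. CSNK1D, casein kinase 1 delta, had 145 to 221 CPM in controls (median 190), 1.63, 10.1 and 7.91 CPM in KO line 1, and 43.5, 47.5 and 50.04 CPM in KO line 2, so that both KO lines were below control (log2 fold change 2.80, SE 0.31, edgeR adjusted p = 7.12e-06). KLHL14, a Kelch-like protein, had 89.4 to 116 CPM in controls, 0, 2.61 and 0.958 CPM in KO line 1, and 8.76, 9.37 and 12.9 CPM in KO line 2. KLHL14 was thus at 1.18% and 10.3% of control (edgeR adjusted p = 4.63e-05).

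The other named rises were smaller in level. HS3ST1, a heparan sulfate sulfotransferase, was at 10.6% of control in KO line 1 and 68.3% in KO line 2, CYP4X1, a cytochrome P450, at 12.7% and 82.3%, TBC1D26-AS1 at 10.2% and 65.4%, and LINC02805 at 16.2% and 181%. PGK1, the glycolytic phosphoglycerate kinase, had 2.30 to 9.73 CPM in controls, 0.407, 2.24 and 2.64 CPM in KO line 1, and 10.4, 22.1 and 8.49 CPM in KO line 2 (log2 fold change 2.87, SE 0.70, edgeR adjusted p = 0.0270). The calls of PGK1 and CYP4X1 were lost without KO line 1 replicate A, KO line 1 replicate B or KO line 2 replicate B, and that of CYP4X1 also without KO line 1 replicate C or KO line 2 replicate A. ENSG00000272114, opposite the angiogenic growth factor gene VEGFA, was chosen after its values were seen. It had 84.9 to 133 CPM in controls (median 128), 6.51, 4.85 and 4.07 CPM in KO line 1, and 66.5, 43.8 and 84.6 CPM in KO line 2. Its KO lines were far apart (log2 fold change 3.68, SE 0.29, edgeR adjusted p = 4.10e-10).

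Few features at imprinted genes, which are expressed from 1 parental copy, differed between the KO lines, and they went in both directions. ENSG00000270823, opposite MEST, had 638 to 808 CPM in controls (median 715), 1471, 1482 and 1202 CPM in KO line 1, and 797, 868 and 819 CPM in KO line 2. KO line 1 was above all other libraries (log2 fold change -0.74, SE 0.14, edgeR adjusted p = 0.00272). SGCE, an imprinted gene whose exons lie opposite the imprinted gene PEG10, had 897 to 1028 CPM in controls (median 917), 2043, 2085 and 1461 CPM in KO line 1, and 1213, 1257 and 992 CPM in KO line 2 (log2 fold change -0.69, SE 0.15, edgeR adjusted p = 0.00925). The SGCE call was lost without KO line 1 replicate A, KO line 1 replicate B or KO line 2 replicate C. KCNQ1, a potassium channel gene of an imprinted cluster, went the other way, with 14.1 to 24.7 CPM in controls, 5.69, 3.73 and 2.16 CPM in KO line 1, and 21.1, 13.7 and 18.4 CPM in KO line 2 (log2 fold change 2.23, SE 0.46, edgeR adjusted p = 0.00624). The noncoding RNA KCNQ1OT1 lies opposite KCNQ1, and the KCNQ1 call was lost without both replicate C libraries of the KO lines. Of 22 imprinted genes tested under their own name, 1 was higher and 1 lower in KO line 2, and of 11 features opposite one, 1 was lower. The median log2 fold changes were 0.04 and -0.25. Among all features tested 1.23% passed, 0.827% higher and 0.4% lower.

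The features opposite cell cycle genes that passed were lower in KO line 2 than in both KO line 1 and control. ENSG00000285600, opposite the replication helicase gene MCM2, had 410 to 524 CPM in controls (median 463), 478, 460 and 367 CPM in KO line 1, and 275, 249 and 243 CPM in KO line 2 (log2 fold change -0.77, SE 0.16, edgeR adjusted p = 0.00663). TYMSOS, opposite the thymidylate synthase gene TYMS, had 395 to 530 CPM in controls (median 413), 252, 347 and 170 CPM in KO line 1, and 152.2, 164 and 111 CPM in KO line 2 (log2 fold change -0.85, SE 0.20, edgeR adjusted p = 0.0249). KO line 1 did not pass against control for the first and was below control for the second. Of 8 features tested opposite a cell cycle gene 2 were lower and none higher, with a median log2 fold change of -0.52. Under their own names none of 20 differed, with a median of 0.31. Among all features tested 0.4% were lower and 0.827% higher. The calls were lost without KO line 1 replicate A, and that of TYMSOS also without KO line 1 replicate B, KO line 2 replicate A or KO line 2 replicate C.

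ENSG00000234961, opposite the progenitor filament gene VIM, had 6619 to 8727 CPM in controls (median 6906), 6755, 7313 and 5371 CPM in KO line 1, and 4710, 4788 and 3815 CPM in KO line 2 (log2 fold change -0.55, SE 0.14, edgeR adjusted p = 0.0330). VIM-AS1, which also lies opposite VIM, had a log2 fold change of -0.16 (SE 0.13, edgeR adjusted p = 0.724), so the features opposite VIM differed in their calls. The first of these calls was lost without KO line 1 replicate A, KO line 1 replicate B, KO line 2 replicate A, KO line 2 replicate C or control line 2 replicate A. ENSG00000274021, opposite the ERK phosphatase gene DUSP6, had 154 to 243 CPM in controls (median 217), 28.9, 44.0 and 33.3 CPM in KO line 1, and 25.3, 15.4 and 17.3 CPM in KO line 2. It was below control in both KO lines and lower in KO line 2 (log2 fold change -0.87, SE 0.22, edgeR adjusted p = 0.0401). In 11 of 21 alternatives it did not pass, among them those without KO line 1 replicate B, KO line 2 replicate B or C, any control line 1 library, or control line 2 replicate A.

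Of the 12 largest named falls, 6 were above control in KO line 1 and did not pass against control in KO line 2. LINC01917, opposite the netrin receptor gene DCC, had 3.45 to 14.1 CPM in controls, 34.2, 35.0 and 32.3 CPM in KO line 1, and 8.11, 12.7 and 5.85 CPM in KO line 2 (log2 fold change -1.93, SE 0.46, edgeR adjusted p = 0.0229). GRM3-AS1, opposite the glutamate receptor gene GRM3, had 11.8 to 24.2 CPM in controls, 203, 208 and 150 CPM in KO line 1, and 103, 80.7 and 79.0 CPM in KO line 2, so that both KO lines were above control (log2 fold change -1.09, SE 0.22, edgeR adjusted p = 0.00587). RNA5SP216, CCNYL1, LINC01013, MFSD14B and NT5C2 were at 516%, 508%, 240%, 231% and 244% of control in KO line 1 and at 129%, 157%, 103%, 99.4% and 122% in KO line 2. DENND10, LINC01709 and BZW1-AS1 did not pass against control in KO line 1, at 98.6%, 84.3% and 109%, and were below it in KO line 2, at 23.6%, 34.5% and 53.1%. USP6NL-AS1 was at 138% in KO line 1 and at 61.9% in KO line 2. Apart from GRM3-AS1, each of these falls lost its call without KO line 1 replicate A or without KO line 1 replicate B, and all but GRM3-AS1 and NT5C2 lost it without KO line 2 replicate C.

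Genes of the Integrator complex and stress pathways did not pass between the KO lines. Over all features tested 1.23% passed, so no call in small sets like those below is not particular to them. Of 18 Integrator genes tested none differed, and INTS11, the endonuclease that BRAT1 binds, had 173, 170 and 146 CPM in KO line 1, 112, 103 and 141 CPM in KO line 2 and 92.4 to 122 CPM in controls (log2 fold change -0.46, SE 0.19, edgeR adjusted p = 0.298). INTS11 was above control in KO line 1 (edgeR adjusted p = 0.0127). None of 12 p53 targets and none of 11 integrated stress response genes differed, nor did any of 20 clustered protocadherins. Under their own names none of 15 retinoic acid, 14 FGF and ERK, 15 WNT, 10 BMP, 14 Notch, 10 floor plate, 4 hindbrain segment or 8 HOX cofactor genes tested differed. None of the 15 genes of the mitochondrial genome differed, with a median log2 fold change of 0.38, and they summed to 112100 to 132100 CPM in KO line 1, 121400 to 156300 CPM in KO line 2 and 98500 to 116000 CPM in controls. Markers of other cell types were measured as well: none of 11 neural crest, 8 glia, 8 mesenchyme, 5 epithelium, 2 mesoderm or endoderm and 2 endothelium or blood genes tested under their own names differed between the KO lines. The crest markers summed to 96.2 to 147 CPM in KO line 1 and 103 to 131 CPM in KO line 2, and the mesenchyme markers to 110 to 140 CPM and 118 to 153 CPM. SOX10, a neural crest factor, had 0.814, 10.8 and 2.64 CPM in KO line 1 and 10.1, 14.1 and 18.4 CPM in KO line 2, against 51.9 to 79.9 CPM in controls (edgeR adjusted p = 0.173). The difference in SOX10 passed without KO line 1 replicate B, with no filter and with DESeq2. The part of any cell type in the differences above was not tested.

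Over all features, KO line 2 libraries lay nearer control, but the libraries overlapped. The distance of a library to control, as the root mean square log2 difference from the mean of both control lines over 15000 features, was 1.28, 1.21 and 1.27 in KO line 1 and 1.03, 1.05 and 1.25 in KO line 2. KO line 2 replicate C was as far as KO line 1. The means were 1.25 ± 0.0358 and 1.11 ± 0.119 (SD, n = 3), and the 2-sided exact permutation p was 0.2, where 3 against 3 cannot go below 0.1. KO line 2 replicate C is also the KO line 2 library with the highest wrong-strand percent, and the part of that in its distance was not tested.

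**Figure D4:**
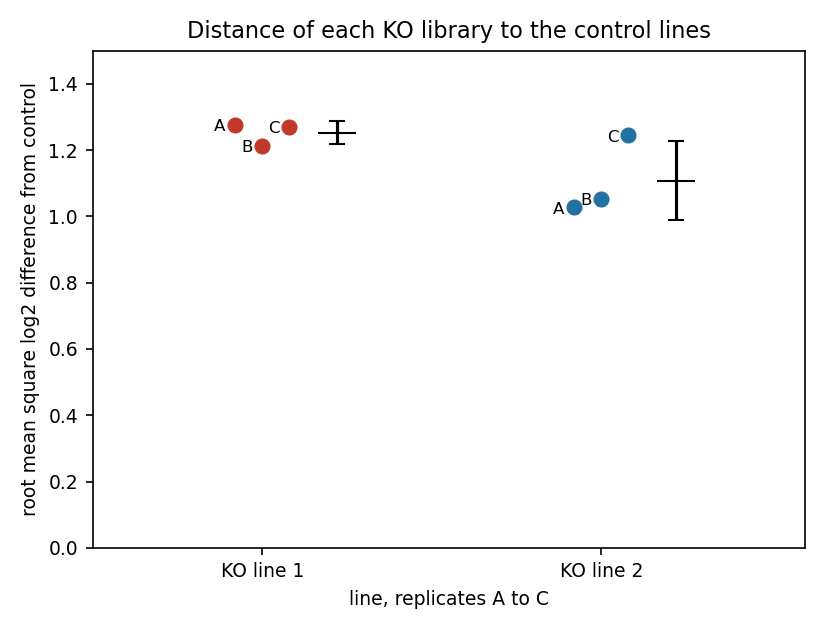
Root mean square log2 difference of each KO library from the mean of the control lines over 15000 features, with the mean and SD of each line (black, n = 3). KO line 2 replicates A and B are nearer control than the KO line 1 libraries, and KO line 2 replicate C lies among them.

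The KO lines were also compared on the features most changed against control, a selection made after seeing the data. The 108 features at least 8-fold below control in KO line 1 had a median of 5.38% of control there and 19.3% in KO line 2 (quartiles 10.3% and 30.1%), and 102 of them were higher in KO line 2. Selected the other way, the 36 features at least 8-fold below control in KO line 2 had a median of 8.31% in KO line 2 and 2.31% in KO line 1. KO line 1 was the higher line in 11 of these 36. For features at least 8-fold above control the lines were closer: KO line 2 was at a median of 65.7% of KO line 1 over the 58 chosen on KO line 1, and KO line 1 was at 87.0% of KO line 2 over the 47 chosen on KO line 2. Selection on 1 line alone favours a less extreme value in the other, so each pair is to be read together, and no test was made.

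Median log2 fold changes between the KO lines ran from -0.07 on chromosome 8 to 0.08 on chromosome 19, and those between the control lines from -0.11 on chromosome 13 to 0.05 on chromosome 16. Over features with a mean of at least 10 CPM they ran from -0.16 on chromosome 8, with -0.13 on chromosome 13, to 0.06 on chromosome 19 for the KO lines, and from -0.06 to 0.06 for the control lines. Over 250 windows of 10 Mb with at least 20 features the medians ran from -0.34 on chromosome 3 to 0.44 on chromosome 1. Of the 184 features 172 were placed, and 11 pairs of them lay within 50 kb of each other, 10 with the same direction. As 124 of the 184 were higher in KO line 2, pairs of the same direction were favoured. The pairs are not independent: LENG8, LENG9 and LENG8-AS1 pair with one another, and some pairs overlap or adjoin. No test was made on them. GLI1 and INHBE, an activin subunit gene, lie 854 bp apart on chromosome 12. INHBE had 1.22, 4.10 and 8.63 CPM in KO line 1 and 26.0, 24.1 and 23.1 CPM in KO line 2, against 32.5 to 49.0 CPM in controls (log2 fold change 2.30, edgeR adjusted p = 0.00111). PGK1 and TAF9B, a gene of a TFIID-type subunit, lie 451 bp apart on the X chromosome, and SPAG4 and CPNE1 lie 4981 bp apart on chromosome 20. CPNE1 had 0.814, 0.373 and 0 CPM in KO line 1 and 16.9, 5.69 and 5.85 CPM in KO line 2, against 16.8 to 26.5 CPM in controls (3 counts against 89, a ratio of 29.1 with a 95% counting interval of 9.65 to 144). INHBE, CPNE1, SPAG4 and TAF9B were chosen for their position after their values were seen.

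**Figure D5:**
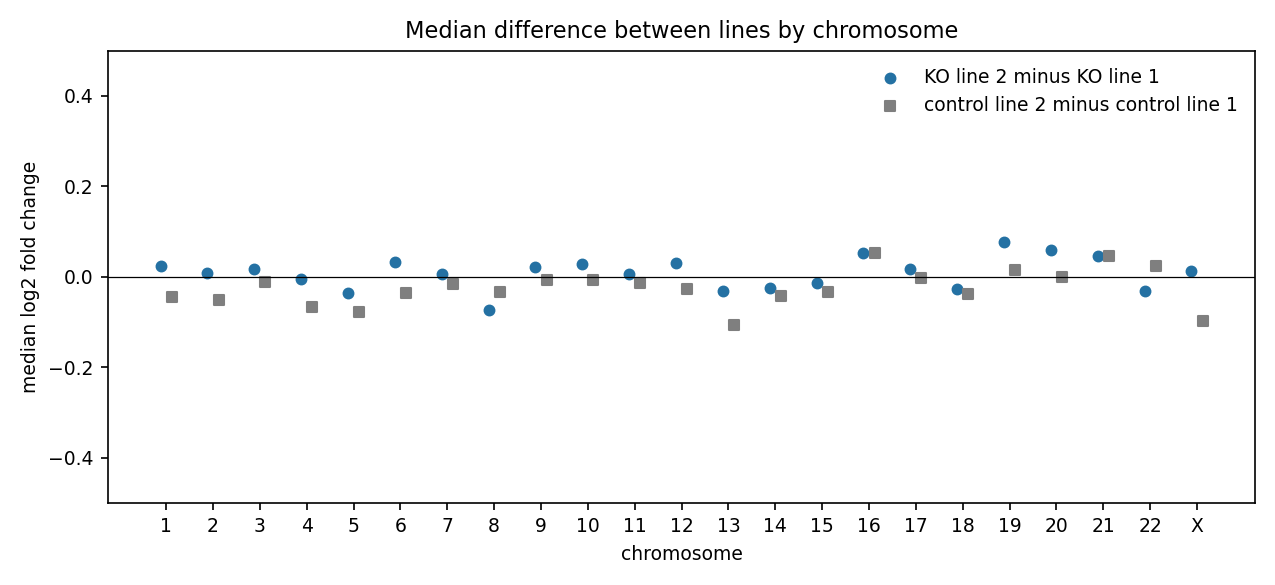
Median log2 fold change of all features tested on each chromosome, for KO line 2 minus KO line 1 (blue circles) and control line 2 minus control line 1 (grey squares) at day 14. Over all features tested the KO line medians lie between -0.07 and 0.08; over those with a mean of at least 10 CPM, not drawn, chromosome 8 is at -0.16.

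The same lines were compared at day 0, before differentiation. None of 7165 features tested passed with edgeR (0%), 198 (2.76%) had an unadjusted p under 0.05, and DESeq2 called 2. At the same unadjusted threshold the control lines differed in 3.73%, KO line 1 and control in 4.23%, and KO line 2 and control in 2.76%. Of the 184 features, 129 were tested at day 0, and 45 (34.9%) had the same sign there, where 48.4% of the 6646 features tested on both days did. Day 0 libraries B and C of all lines had wrong-strand percents of 4.58 to 12.2, against 2.49 to 3.16 in the A libraries. The common coefficient of variation was 0.947 at day 0 and 0.450 at day 14, so differences of the size seen at day 14 could pass undetected at day 0.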

How the data were processed

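Poly(A) RNA of H7 cells was sequenced as Click-Seq libraries, per the labels' protocols. The authors deposited raw counts per gene, 1 table of 61248 features for each of 24 libraries. The submitters' processing notes name bcl2fastq 2.20.0, STAR 2.7.9a, GRCh38, featureCounts of Subread 2.0.1, DESeq2 1.34.0 and R 3.5.1. No annotation release or strand setting was given in the sources used here. Features were matched to GENCODE 29, which was not shown to be the release counted with, and 57015 were placed, with 90.1% of counts. Opposite features share at least 100 bp of exon on the other strand.

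The counts of the 12 day 14 libraries were fitted with the edgeR 4.0.16 quasi-likelihood test (R 4.3.3, TMM scaling, filterByExpr by line, robust), as 4 lines with no block, and p-values were Benjamini-Hochberg adjusted. SE is the log2 fold change divided by the root of F. CPM uses TMM library sizes. Distances use log2 CPM with a prior count of 2. Counting intervals cover counting error only. Where a KO line has no count, a floor of 3 counts over the line gives the bound. The p-values measure the spread between replicates of 1 line.

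Named features are BRAT1, the 12 largest rises and 12 largest falls with a symbol, a mean of at least 10 CPM and no overlap, then up to 4 called members of each of 32 lists, or 2 where none passed; others are said to be chosen after seeing values or are members of those lists given to complete a group. A few features that these rules select are not reported here. The members, lists and rules were chosen with earlier results of these data known. The alternatives tried were RLE scaling, DESeq2 1.42.0, the table with no filter, other sets of libraries, a replicate block, leaving out features above 1 percent, a wrong-strand covariate and leaving out each library. The fit without the 2 KO libraries above 4 percent wrong strand was added after seeing the data.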

Additional observations from a re-analysis of the deposited data

Results flagged for a closer look

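In 4 features the KO lines lay on opposite sides of control, each past the threshold against control, and also differed from each other by the edgeR test. ENSG00000206028, opposite the nuclear noncoding RNA MIAT (chromosome 22, 26667693 to 26672654), had 2150 to 2595 CPM in controls, 1653, 1442 and 1173 CPM in KO line 1, and 3972, 3186 and 3590 CPM in KO line 2, with no overlap among the 3 groups (log2 fold change 1.33 between the KO lines, edgeR adjusted p = 1.85e-07). IQUB had 22.2 to 65.0 CPM in controls, 5.29, 9.32 and 11.3 CPM in KO line 1, and 50.6, 96.1 and 75.2 CPM in KO line 2 (log2 fold change 3.07). TUBAP12, a tubulin pseudogene whose reads may be shared with tubulin genes, had 15.9 to 45.6 CPM in controls, 10.6, 13 and 11.7 CPM in KO line 1, and 99.6, 64.3 and 48.9 CPM in KO line 2 (log2 fold change 2.58). ENSG00000265401, opposite the ubiquitin gene UBB, had 3651 to 4770 CPM in controls, 5699, 5474 and 4957 CPM in KO line 1, and 3462, 3234 and 3534 CPM in KO line 2 (log2 fold change -0.66). Against control the log2 fold changes of IQUB were -2.07 in KO line 1 and 1.00 in KO line 2, and those of TUBAP12 were -0.97 and 1.61. Both KO lines were set against the same controls.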

How the results depend on the processing

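Counts of features called between the KO lines, 184 in all with 124 higher and 60 lower, varied with the fit, and the features called were not all among the 184. The fit of all 24 libraries called 2, 2 and 0, the fit of only the 6 libraries compared 50, 38 and 12, the wrong-strand covariate 319, 226 and 93, and DESeq2 325 in all and 143 lower. Of these calls 48 with only the libraries compared, 182 with the covariate and 176 with DESeq2 were among the 184. Leaving out each library in turn gave 109 to 289 in all and 16 to 135 lower. The control lines, at 16, gave 0 with all 24 libraries, 42 with no filter, 28 with only the libraries compared, 27 with the covariate, 25 without the 2 KO libraries above 4 percent wrong strand and 10 to 25 leaving out each library. KO line 1 against controls gave 168 and KO line 2 against controls 69 with all 24 libraries, and KO line 2 gave 964 with the covariate and 1214 to 2445 leaving out each library. At day 0, where the count was 0, DESeq2 gave 2, no filter 4, all 24 libraries 1 and the replicate block 1. BRAT1 had a log2 fold change of 2.71 with all 24 libraries (edgeR adjusted p = 0.769) and passed in the other 20 alternatives. The cause of these shifts was not tested. Replicate letters are shared by the lines. The correlations of same-letter KO libraries, as deviations from their line means, were 0.00179, 0.0441 and 0.0852. Libraries of different letters were not compared in this way, so whether libraries of 1 letter share a batch was not tested. With the replicate block 139 features differed, 39 of them lower. The distance to control was larger in KO line 1 in all alternatives run, and KO line 2 was nearer control in 75% to 78.3% of the 184 features, and in 74.9% of those with a mean of at least 10 CPM. Of 60 features named in the text or its lists that passed, 59 lost the call with all 24 libraries, 33 with only the libraries compared and 9 with the block; none lost it with DESeq2 or RLE scaling, and none changed direction. Depth limits features under about 1 CPM, which is 3 counts in a library of this size.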

Other observations

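Several abundant features of the cytoskeleton, iron storage and RNA binding differed between the KO lines by small steps, all chosen here after their values were seen. TUBA1C, an alpha tubulin gene whose reads may be shared with its near copies, had 1709 to 2256 CPM in controls, 3104, 3472 and 2083 CPM in KO line 1, and 1698, 1675 and 1679 CPM in KO line 2 (log2 fold change -0.78, SE 0.15, edgeR adjusted p = 0.00337). ENSG00000272540, opposite the beta tubulin gene TUBB, had 15122 to 18348 CPM in controls, 16786, 19641 and 14135 CPM in KO line 1, and 12336, 11183 and 11542 CPM in KO line 2, so that KO line 2 was below every other library (log2 fold change -0.53, edgeR adjusted p = 0.0181). BEST1, whose exons lie opposite the ferritin gene FTH1, had 6015, 5640 and 4604 CPM in KO line 1 and 3772, 4188 and 3431 CPM in KO line 2, against 5725 to 5927 CPM in controls (edgeR adjusted p = 0.0293). The TUBB and FTH1 features lost their calls without KO line 1 replicate A, KO line 1 replicate B, KO line 2 replicate A or KO line 2 replicate C, and in some other alternatives. COX20, whose exons lie opposite HNRNPU, a nuclear RNA-binding protein gene, went the other way, with 1656 to 2394 CPM in controls, 730, 770 and 555 CPM in KO line 1, and 1357, 1369 and 1008 CPM in KO line 2 (log2 fold change 0.86, edgeR adjusted p = 0.00171).

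A few features had no count in any KO line 1 library and passed between the KO lines. C9orf152 had 4.54, 7.36 and 8.19 CPM in KO line 2 and 0 to 4.93 CPM in controls, at least 20.9-fold higher in KO line 2 by a floor of 3 counts over the line. ENSG00000288928 had 29 to 42.3 CPM in controls and was at least 20.3-fold higher in KO line 2 than in KO line 1. The C9orf152 call was lost without KO line 1 replicate B. ENSG00000288928 kept its call without each library in turn.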
